A study of Mus musculus with 8 samples.

Results

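The small leucine-rich proteoglycans (SLRPs) are secreted proteins of the extracellular matrix, and the 10 SLRP genes described here are Dcn, Bgn, Aspn, Ecm2, Lum, Fmod, Prelp, Omd, Ogn and Podn. They were chosen by gene name as members of this family, with earlier results of these data known, and all 10 were among the 16382 genes tested. RNA was sequenced from whole soleus, a slow hindlimb muscle, of 4 Megf10 knockout (KO) and 4 wild-type (WT) mice, which were all female and 7 months old, with 1 poly(A)-selected library per mouse. Megf10 encodes a receptor of satellite cells and glia, and the KO mice were homozygous for the tm1b allele, a deletion of exon 4 in all cells. The study housed mice at more than a single site, and which site the sequenced mice came from is not given in the sources used here.

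The protein core of an SLRP is a curved stack of leucine-rich repeats that binds collagen fibrils and sets how they assemble and how wide they grow. Many cores also carry glycosaminoglycan chains, chondroitin or dermatan sulfate on decorin and biglycan and keratan sulfate on lumican and fibromodulin, and several bind growth factors such as TGF-beta. In skeletal muscle the main producers are fibroblast-like cells, the fibro-adipogenic progenitors of the endomysium and perimysium, with tendon cells where the muscle joins its tendon.

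Of the 10 genes, 2 rose in KO soleus (Bgn and Aspn), none fell, and 8 did not pass the test. Bgn rose by 0.74 on the log2 scale and Aspn by 0.58, whereas the estimates for Dcn, the most abundant SLRP RNA of the muscle, and for Ecm2 were both 0.05. Across all genes tested, 5.16% were called higher and 3.79% lower in KO, together 8.95%, at an adjusted p under 0.05 in limma, a linear model fitted to every gene. With 2 of 10 members called higher, the count is small, and the 10 genes were not tested as a set. The estimate was above 0 for 9 of the 10 members and for 49.0% of all genes, and its median was 0.34 over the members and -0.0072 over all genes.

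Values are gene counts normalized by the authors, summed levels are sums of these, and fold changes are differences of the mean log2(normalized count + 1), KO minus WT, with their SE, 95% confidence interval and Benjamini-Hochberg adjusted p. Values of a gene are given for replicates 1, 2, 3 and 4 in that order. Normalized totals per KO library were 32.3 to 33.1 M and per WT library 33.6 to 35.7 M. The depth recovered from the spacing of low values ran from 26.0 to 37.8 M reads for KO and from 36.7 to 41.5 M for WT, and it was correlated with genotype (r = -0.79 over 8 libraries, KO coded as 1). Megf10 itself had 1.55, 7.76, 1.12 and 11.1 normalized counts in the KO libraries and 63.0, 57.1, 69.7 and 70.0 in the WT libraries, a change of -3.75 (SE 0.545, adjusted p = 0.00343, limma, n = 4 per genotype). Slow and type IIa fiber genes summed to between 2525064 and 3045432 normalized counts per library and type IIb fiber genes to between 138177 and 260719. The first sum also counts Acta1, Ckm and Myh2, so it does not by itself show slow markers. Most of the second sum was Tnnt3, a fast troponin T gene, so it does not by itself show type IIb markers. Tnnt3 had a mean log2(normalized count + 1) of 17.4, and the next of its list was Actn3 at 12.5. Within that list Myh7 had a mean log2(normalized count + 1) of 19.2 over the 8 libraries, against 11.1 for Myh4 of the type IIb list. In bulk RNA, fewer or more cells of a type and less or more RNA per cell cannot be told apart.

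**Figure D1:**
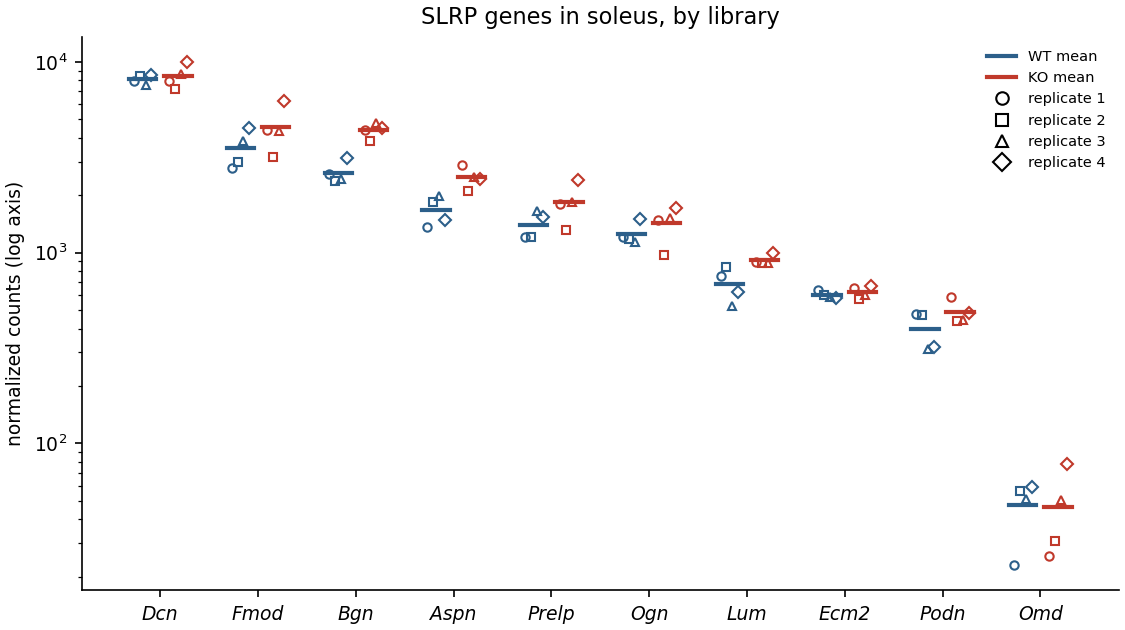
Normalized counts (log axis) of the 10 SLRP genes in each of the 4 WT (blue) and 4 KO (red) libraries, with a bar at each mean and a symbol for each replicate. Bgn, Aspn and Lum show no overlap between genotypes, while Dcn overlaps at the top and Omd lies below all the others.

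Per kilobase of transcript, WT soleus held far more Dcn than any other member, at 4609 ± 249 normalized counts per kb (SD, n = 4). It was followed by Fmod at 1128 ± 253, Bgn at 1086 ± 147 and Aspn at 716 ± 123. Ogn (490.2 ± 63.1), Prelp (388 ± 62.5) and Lum (279 ± 56.4) formed a middle range. Ecm2 (167 ± 7.65), Podn (125 ± 29.1) and Omd (21.2 ± 7.42) were the lowest. Neighbors in this order whose WT values overlapped were Fmod with Bgn, Ogn with Prelp, and Prelp with Lum. In KO the order was the same except that Bgn, at 1810.2 ± 165 per kb, stood ahead of Fmod at 1452 ± 401, though the values of these genes still overlapped. Other KO neighbors with overlapping values were Fmod with Aspn, Ogn with Prelp, Prelp with Lum, and Ecm2 with Podn. The lengths are those of the longest protein-coding transcript of each gene, so an RNA made mostly as a shorter isoform is set too low.

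Decorin binds type I collagen fibrils and TGF-beta, and Dcn stood at 7965, 7183, 8667 and 9989 normalized counts in the KO libraries. In the WT libraries it stood at 7933, 8382, 7567 and 8529. The WT values lay inside the range of the KO values, with KO replicate 2 the lowest and KO replicate 4 the highest of all libraries. The log2 fold change was 0.05 (SE 0.093, interval -0.15 to 0.26, adjusted p = 0.777, limma, n = 4), an interval that leaves out a rise as large as that of Bgn.

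Biglycan, the closest relative of decorin, is encoded on the X chromosome and is known both as a collagen binder and as a partner of the dystrophin-associated complex at the muscle membrane. Bgn had 4411, 3824, 4770.2 and 4510.3 normalized counts in the KO libraries and 2591, 2361, 2419 and 3141 in the WT libraries. Every KO library was above every WT library, and the lowest KO value was 1.22 times the highest WT value. The KO mean was 1.67 times the WT mean, with a log2 fold change of 0.74 (SE 0.100, interval 0.52 to 0.96, adjusted p = 0.00259, limma, n = 4). By p-value Bgn ranked 107 of 16382 genes. With the recovered depth added to the model the estimate was 0.69 and the call was lost (adjusted p = 0.139, limma), and in that model 58 genes were called in all, against 1466 without it. Megf10, the deleted gene, was not called in that model either (adjusted p = 0.0568, limma).

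Asporin has the same kind of core as decorin and biglycan but no glycosaminoglycan chain, competes with decorin for collagen and dampens TGF-beta signaling. Aspn had 2869.6, 2113, 2481 and 2442 normalized counts in the KO libraries and 1366, 1839.8, 1974 and 1487 in the WT libraries. The genotypes did not overlap, but the gap between KO replicate 2 and WT replicate 3 was narrow, at a ratio of 1.07. The KO mean was 1.49 times the WT mean, with a log2 fold change of 0.58 (SE 0.128, interval 0.30 to 0.86, adjusted p = 0.0204, limma, n = 4). The call was lost without KO replicate 3 (adjusted p = 0.0604), without WT replicate 4 (0.0563), without KO replicates 2 and 3 together (0.0805), with depth in the model (0.0568) and with a prior variance that does not follow expression (0.0731).

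Ecm2, a decorin-like gene next to Aspn on chromosome 13, had 653, 568, 600.1 and 667 normalized counts in the KO libraries. Its WT values were 639, 600.0, 584 and 578. The genotypes overlapped, and the coefficient of variation was 7.42% in KO and 4.58% in WT, the latter the lowest of the 10 members. The log2 fold change of 0.05 (SE 0.087, interval -0.14 to 0.24, adjusted p = 0.765, limma, n = 4) again excluded the estimate of Aspn. Ecm2, Aspn, Omd and Ogn lie one after another on chromosome 13, all inside the span of Cenpp, a centromere protein gene, so Aspn, which rose, and 3 members that were not called share a neighborhood. Reads were assigned to transcripts, and whether strand was used is not given in the sources used here. Unspliced reads of Cenpp that cover exons of these genes could therefore be counted for them, which was not tested. The estimate for Cenpp was -0.15 (SE 0.222, adjusted p = 0.723, limma). Dcn and Lum are likewise neighbors on chromosome 10, and Prelp and Fmod on chromosome 1.

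**Figure D2:**
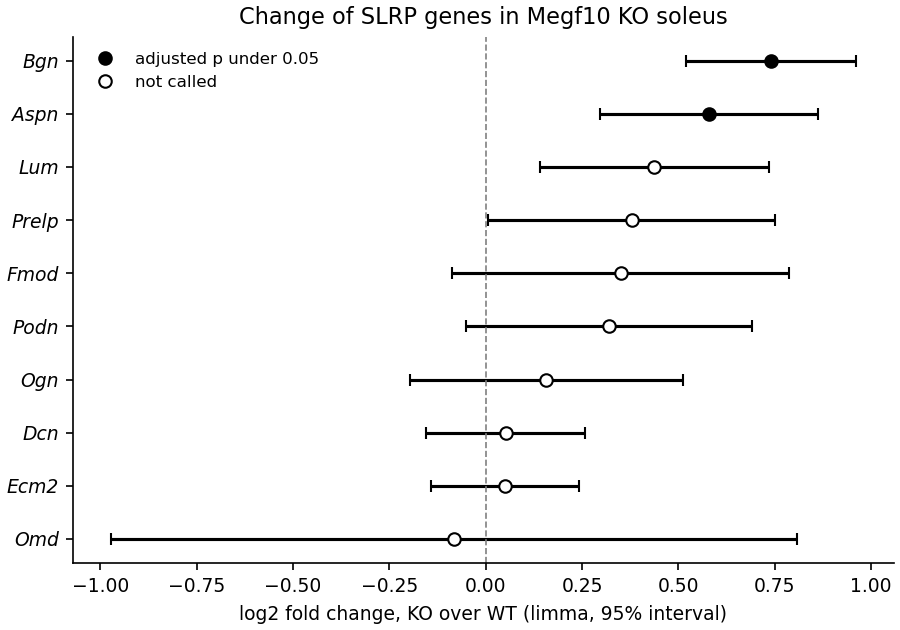
Log2 fold change of KO over WT for each SLRP gene with its 95% confidence interval from limma (n = 4 per genotype). Filled points, Bgn at 0.74 and Aspn at 0.58, have an adjusted p under 0.05, and the open points do not.

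Lumican regulates fibril width, best known from the cornea and skin, and Lum had 892, 882, 883 and 992 normalized counts in the KO libraries. In the WT libraries it had 750.5, 836, 524 and 621. Every KO library was above every WT library, yet the WT values spread widely, and the log2 fold change of 0.44 (SE 0.135, interval 0.14 to 0.74) had an unadjusted p of 0.00804 and an adjusted p of 0.0698 in limma (n = 4). The call was gained in 1 alternative, without WT replicate 2 (0.54, adjusted p = 0.0299). Non-overlap with KO higher was seen for 3 of the 10 members (Bgn, Aspn and Lum) and for 8.63% of all genes.

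Fibromodulin, a collagen cross-linking regulator abundant in tendon, ranged widely. Fmod had 4378, 3177, 4356 and 6205 normalized counts in the KO libraries, and 2765, 2985, 3855 and 4473 in the WT libraries. Prelp, which anchors basement membranes to collagen, had 1809, 1321, 1853 and 2403 in KO and 1213, 1208, 1649 and 1539 in WT. Both genes were highest in KO replicate 4 and lowest among KO libraries in replicate 2, whose values fell within the WT range. The log2 fold change was 0.35 for Fmod (SE 0.198, interval -0.09 to 0.79, adjusted p = 0.301, limma, n = 4) and 0.38 for Prelp (SE 0.169, interval 0.0054 to 0.75, adjusted p = 0.190, limma).

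The remaining members overlapped between genotypes. Osteoglycin, encoded by Ogn, had 1477, 977, 1525 and 1718 normalized counts in the KO libraries and 1215, 1177, 1143 and 1497 in the WT libraries (0.16, SE 0.160, interval -0.20 to 0.51, adjusted p = 0.586, limma, n = 4). Podn, a gene first described in kidney podocytes, was at 586, 437, 446 and 483 in KO and at 479, 473, 314 and 319 in WT (0.32, SE 0.168, interval -0.05 to 0.69, adjusted p = 0.266, limma, n = 4). Podn in WT split into a higher pair, replicates 1 and 2, and a lower pair, replicates 3 and 4, as Lum did. Omd, which encodes an SLRP of bone matrix, was at 25.8, 30.9, 50.4 and 78.1 in KO and at 23.1, 56.7, 51.1 and 59.5 in WT (-0.08, SE 0.403, interval -0.97 to 0.81, adjusted p = 0.923, limma, n = 4), an interval too wide to give a direction.

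Each gene was also fitted relative to Dcn, the most abundant member, in the same library. In this model 3.63% of the 16381 other genes were called, and 2.64% of the 16381 were called higher in KO. Bgn was the single member among the 9 that was called. The ratio of Bgn to Dcn was 0.554, 0.532, 0.550 and 0.452 in the KO libraries and 0.327, 0.282, 0.320 and 0.368 in the WT libraries. The genotypes did not overlap, and the log2 change of Bgn relative to Dcn was 0.69 (SE 0.130, interval 0.42 to 0.96, adjusted p = 0.00531, limma, n = 4). This call was kept in 17 of 20 alternatives. Among those kept, the fit without a filter was the same as the reported fit, and rescaling by library size nearly cancels in a ratio to Dcn. The call was lost with a prior variance that does not follow expression (adjusted p = 0.0555), when KO replicates 2 and 3 were both left out (0.0930) and with depth in the model (0.326, limma). The ratio of Aspn to Dcn was 0.360, 0.294, 0.286 and 0.244 in KO and 0.172, 0.220, 0.261 and 0.174 in WT, so that KO replicate 4 fell below WT replicate 3. Aspn relative to Dcn did not pass (0.53, SE 0.160, interval 0.19 to 0.87, adjusted p = 0.0810, limma), though it was called without KO replicate 4 (0.61, adjusted p = 0.0471) or without WT replicate 3 (0.65, adjusted p = 0.0422). Relative to Dcn, Lum had an estimate of 0.39, Prelp 0.33, Fmod 0.30, Podn 0.27, Ogn 0.11, Ecm2 -0.0014 and Omd -0.13, with adjusted p of 0.209 or more in limma.

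**Figure D3:**
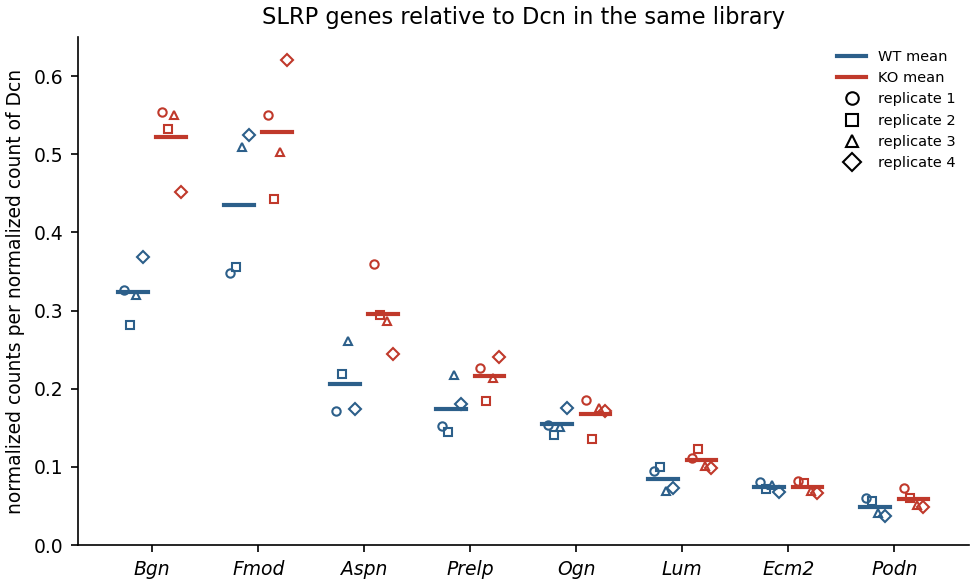
Normalized counts of 8 SLRP genes divided by those of Dcn in the same library, for 4 WT (blue) and 4 KO (red) libraries with their means. The ratio of Bgn lies between 0.452 and 0.554 in KO and between 0.282 and 0.368 in WT, and the ratio of Ecm2 overlaps between genotypes. Omd, far lower, is left out.

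The shares of the members in the SLRP pool are given next. The 10 members summed to between 20514 and 29487 normalized counts in KO and between 18973 and 22243 in WT, which overlapped. Dcn made up 31.8 to 35.0% of that sum in KO and 37.7 to 42.1% in WT. Bgn made up 15.3 to 18.6% in KO and 11.9 to 14.1% in WT. Neither of these shares overlapped between genotypes, and since shares of a sum depend on each other they were not tested.

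The RefSeq promoters of the called genes Bgn and Aspn are printed here with that of Ecm2, the neighbor of Aspn that was not called, and with those of Fmod and Prelp, whose levels followed each other. Each runs from 250 bases before to 50 bases after the transcription start on build GRCm38.p6, read 5′ to 3′ on the strand of the gene. Bgn is at chrX:73483351-73483650 (+), Aspn at chr13:49544193-49544492 (+), Ecm2 at chr13:49504560-49504859 (+), Fmod at chr1:134037004-134037303 (+) and Prelp at chr1:133921352-133921651 (-). Capitals mark matches, on either strand, to a TATA box (TATAAA), a GC box (GGGCGG), a TEAD motif (GGAATG), a SMAD motif (CAGAC) or an AP-1 motif (TGANTCA).
Bgn: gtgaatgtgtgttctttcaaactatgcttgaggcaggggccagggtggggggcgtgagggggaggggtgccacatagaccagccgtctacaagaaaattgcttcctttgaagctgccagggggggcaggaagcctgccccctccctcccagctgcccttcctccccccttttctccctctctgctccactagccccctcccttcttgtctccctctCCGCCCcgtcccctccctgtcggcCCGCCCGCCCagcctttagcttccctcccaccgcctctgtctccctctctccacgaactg
Aspn: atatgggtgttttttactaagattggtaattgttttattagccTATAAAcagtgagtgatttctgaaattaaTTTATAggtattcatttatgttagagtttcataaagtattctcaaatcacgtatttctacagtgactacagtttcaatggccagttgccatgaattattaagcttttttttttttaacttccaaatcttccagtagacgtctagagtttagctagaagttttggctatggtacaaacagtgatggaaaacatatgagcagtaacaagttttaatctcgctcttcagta
Ecm2: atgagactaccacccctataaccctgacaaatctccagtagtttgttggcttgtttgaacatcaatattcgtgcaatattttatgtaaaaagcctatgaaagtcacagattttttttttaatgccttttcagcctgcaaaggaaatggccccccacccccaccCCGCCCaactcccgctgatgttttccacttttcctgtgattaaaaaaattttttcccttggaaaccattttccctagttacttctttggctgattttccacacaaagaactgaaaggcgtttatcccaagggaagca
Fmod: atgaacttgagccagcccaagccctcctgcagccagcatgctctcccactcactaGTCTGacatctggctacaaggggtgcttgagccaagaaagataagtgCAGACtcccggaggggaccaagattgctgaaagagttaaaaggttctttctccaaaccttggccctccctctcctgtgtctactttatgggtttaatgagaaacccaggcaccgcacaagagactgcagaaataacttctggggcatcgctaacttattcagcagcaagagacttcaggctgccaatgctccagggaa
Prelp: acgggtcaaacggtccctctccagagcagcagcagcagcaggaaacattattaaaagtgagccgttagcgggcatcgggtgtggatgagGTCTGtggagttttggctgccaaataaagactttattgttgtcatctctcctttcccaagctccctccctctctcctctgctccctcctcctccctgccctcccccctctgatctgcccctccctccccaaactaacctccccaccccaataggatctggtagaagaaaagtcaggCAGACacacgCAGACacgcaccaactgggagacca
The Bgn promoter was rich in G and C (63.7%) and held 3 GC boxes, at positions -34, -10 and -6 from the start, the last 2 overlapping each other. The Aspn promoter was poor in G and C (31%) and held 2 TATA box matches, at positions -207 and -178. Ecm2 (41% G and C) held 1 GC box match at position -87. Fmod held 2 SMAD matches, at positions -195 and -148, and Prelp 3, at positions -161, 16 and 26. Over all 32851 promoters of this length the median G and C content was 52.7%, and 13.6% held TATAAA, 35.7% GGGCGG, 14.7% GGAATG, 49.6% CAGAC and 7.81% TGANTCA. The E-box CANNTG, left in lower case, is in 72.3% of them. Such matches describe the letters, and no factor was measured at them. In all, 8 of the 10 members had a promoter entry, and Dcn and Lum did not.

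Fmod and Prelp were alike in pattern across the libraries. By a rule that took the 3 genes most correlated with each member over the 8 libraries, among 14789 genes with a mean of at least 10, each was in the set of the other (r = 0.96, and 0.95 after the genotype means were taken out). Mras was also among the genes nearest to Fmod, and Fbln1 and Arpin were the others nearest to Prelp. Bgn was nearest to Hk1, Ppfibp1 and Map1a, and Aspn to Pkp2, Dalrd3 and Slfn4. For Lum the nearest were Atat1, Sh3glb2 and Ackr3, and for Podn Asb18, Pla2r1 and Leprot. Dcn was nearest to 9930111J21Rik1, Cstf1 and Trim32, Ogn to Or51v8, Ddost and Zdhhc12, Omd to Gigyf2, Lhx6 and Ppp2r2b, and Ecm2 to Isg20, Gm44715 and Tasl. These r values, 0.92 to 0.99, were the highest among 14789 genes over the same 8 libraries and describe likeness of pattern alone. Bgn and Aspn, the members that rose, had r = 0.74 over all libraries and -0.20 after the genotype means were taken out. Among KO libraries replicate 2 was the lowest for both genes, whereas in WT the highest library was replicate 4 for Bgn and replicate 3 for Aspn.

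**Figure D4:**
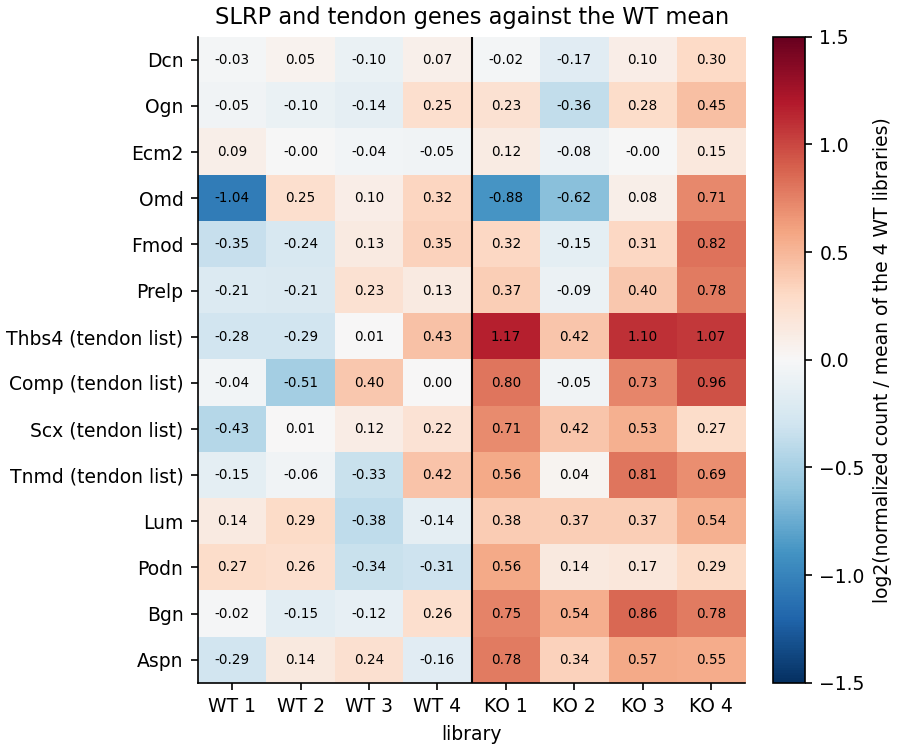
Log2 of the normalized count over the mean of the 4 WT libraries, for the 10 SLRP genes and 4 tendon genes in each library (rows genes, columns libraries, color and printed number the same value). KO replicate 2 is the lowest KO library for 9 of the 10 SLRP genes, all but Omd, and Bgn (0.54) and Aspn (0.34) are above the WT mean there too.

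KO replicate 2, the lowest KO library for 9 of the 10 SLRP genes, was also the lowest for the summed tendon markers, though not for Scx, which was lowest in KO replicate 4. The 10 tendon cell markers summed to between 10012 and 15984 normalized counts in KO, with replicate 2 the lowest, and to between 6843 and 10224 in WT, and no marker was at 0 in any library. Thbs4 was the largest part of that sum, with a mean log2(normalized count + 1) of 12.5, and the next was Comp at 10.1. The estimate was above 0 for 9 of the 10 markers, all but Kera (-0.30). Of the 10, 2 rose (Thbs4, a matrix thrombospondin, by 0.97, adjusted p = 0.0117, and Cpxm2 by 0.56, adjusted p = 0.0233, limma). The call of Cpxm2 was kept in 2 of the 8 fits that left out 1 library (adjusted p of 0.0121 to 0.0678, limma). Scx, the tendon transcription factor, had 0.50 (adjusted p = 0.0567), Tnmd 0.55 (adjusted p = 0.101) and Comp 0.64 (adjusted p = 0.105) in limma. The part of tendon tissue in the SLRP values was not tested. Comp, Scx and Tnmd were chosen for display after their values were seen.

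The fibro-adipogenic progenitor markers, from the cells that make most SLRPs, gave 2 of 14 higher (Mfap5 and Gsn), 1 lower (Lpl) and 11 not called, with summed levels of 95265 to 122318 in KO and 110146 to 123031 in WT. Most of that sum was Lpl, at 53543 to 65699.8 normalized counts in KO and 76855 to 95007 in WT, while 11 of the 14 estimates were above 0, with a median of 0.24. Pdgfra, their defining receptor, stood at 0.37 on the log2 scale (SE 0.158, adjusted p = 0.174, limma). Macrophage markers were higher in 7 of 11 (Lyz2 by 0.84 and Ctss by 0.92), with summed levels of 5443 to 6990.4 in KO and 3108 to 4227 in WT. Adipocyte markers were higher in 5 of 7, Cidec by 2.11, Cfd by 2.06, Plin1 by 1.99, Adipoq by 1.74 and Lep by 1.42, with a median of 1.74 over the list. Their sum, 29184 to 38765 in KO and 25034 to 35048 in WT, was mostly Plin4 and Fabp4, the 2 that were not called. Endothelial markers were lower in 1 of 8 (Cdh5), mural markers in 3 of 8 (Kcnj8, Abcc9 and Rgs5) and satellite cell markers in 2 of 8 (Pax7 and Fgfr4), and Schwann cell markers were higher in 1 of 8 (Mal). Slow and type IIa fiber markers gave 1 of 9 higher (Tnni1) and 3 lower (Myh2, Myl3 and Ckm). The list of type IIb markers gave 1 of 5 lower, the fast troponin T gene Tnnt3 (-0.68), and 4 not called. The 4 not called had estimates above 0: Myh4 1.86, Mybpc2 0.98, Actn3 0.90 and Pvalb 0.57 (adjusted p of 0.357 or more, limma). The median of the list was 0.90, so the call of Tnnt3 does not stand for the list. Of these calls, those of Cdh5, Mal, Tnni1 and Ckm were each kept in 1 of the 8 fits that left out 1 library (adjusted p of up to 0.109, 0.118, 0.0892 and 0.0764, limma). Gsn and Rgs5 lost theirs without KO replicate 3 (adjusted p = 0.0507 and 0.0586), Pax7 without WT replicate 3 or 4 (0.0511 and 0.0568) and Myl3 without KO replicate 1 or 3 or WT replicate 4 (0.0615, 0.0764 and 0.0573, limma). No marker of these lists was at 0 in any library, and the part of these cell types in the SLRP values was not tested.

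Genes for partners of SLRPs in the matrix were called in larger numbers than the SLRP genes, a difference between lists that was not tested. Of 12 genes for collagens that SLRPs bind, 9 rose and none fell, with a median log2 fold change of 0.82 over the 12. Col3a1, a fibrillar collagen of the endomysium, had 7391, 6901, 9694 and 10155 normalized counts in the KO libraries and 3215, 4561, 3561 and 4263 in the WT libraries. It did not overlap and rose by 1.12 (SE 0.144, adjusted p = 0.00204, limma, n = 4). Col12a1, a fibril-associated collagen, rose by 1.20, and Col5a2 and Col5a1, chains of the collagen that starts fibrils, rose by 0.95 and 0.91. The 3 not called, named after their values were seen, were Col2a1, Col5a3 and Col14a1. Col3a1, Col12a1, Col5a2 and Col5a1 were each called in 19 of 20 alternatives, as Bgn was. Their largest adjusted p were 0.134, 0.127, 0.111 and 0.253 (limma). Measured relative to Dcn, 10 of the 12 collagen genes were called higher (2.64% of all genes), with a median of 0.77, as against Bgn alone among the 9 other SLRP members. Col3a1 relative to Dcn changed by 1.07 (SE 0.129, adjusted p = 0.000194, limma). Of 12 other fibril and elastic fiber partners, 5 rose, among them Fn1 (0.73), Eln (1.28), Dpt (0.68), the dermatopontin that binds decorin, and Pcolce (0.60), an enhancer of procollagen processing. The call of Pcolce was lost without KO replicate 3 (adjusted p = 0.0507, limma).

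**Figure D5:**
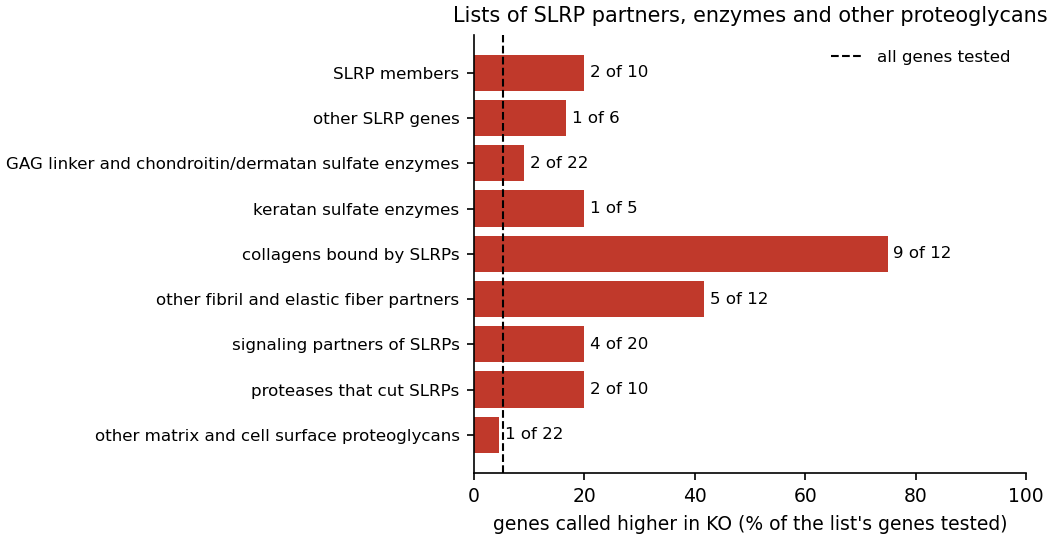
Share of each list's tested genes called higher in KO (adjusted p under 0.05, limma), with the count printed beside each bar and a dashed line at the 5.16% of all genes tested. The collagens reach 9 of 12 and the SLRP genes 2 of 10.

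Enzymes that build the chains of SLRPs mostly did not pass. Of 22 tested genes for the linker, chondroitin and dermatan sulfate, 2 rose. Chpf, a chondroitin polymerizing factor, had 395, 368, 478 and 419.9 normalized counts in the KO libraries and 226, 241, 275 and 305 in WT, and rose by 0.67 (SE 0.130, adjusted p = 0.0117, limma, n = 4). Fam20b, the xylose kinase of the linker, rose by 0.23 (adjusted p = 0.0489), a call that was lost in each of the 8 fits that left out 1 library (adjusted p of 0.0551 to 0.117, limma). Of 5 tested keratan sulfate enzymes, 1 rose, the galactose sulfotransferase Chst1 (0.96, adjusted p = 0.0358), and the call was kept in 1 of the 8 fits that left out 1 library (adjusted p of 0.0188 to 0.103, limma).

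Among 20 tested signaling partners, 4 rose and none fell. Tlr4, a receptor that soluble biglycan activates, had 544, 593, 561 and 604 normalized counts in the KO libraries and 319, 335, 376 and 306 in WT, and rose by 0.79 (SE 0.098, adjusted p = 0.00183, limma, n = 4). Tlr2, the other Toll-like receptor that binds biglycan, rose by 1.18 (adjusted p = 0.0115), and Lrp1, an endocytic receptor for decorin, by 0.56 (adjusted p = 0.0130). Ccn2, a TGF-beta target that decorin binds, rose by 1.14 (adjusted p = 0.0393), a call kept in 2 of the 8 fits that left out 1 library (adjusted p of 0.0063 to 0.112, limma). Both Toll-like receptors are also made by macrophages, whose markers are given above. The genes for TGF-beta itself and its receptors were among the 16 not called, with Tgfb1 at 0.20 (adjusted p = 0.463, limma). Of 10 proteases that cut SLRPs, 2 rose, Mmp2 by 0.53 (adjusted p = 0.00156) and Bmp1 by 0.39 (adjusted p = 0.0346), the latter kept in 2 of the 8 fits that left out 1 library (adjusted p of 0.0432 to 0.0830, limma).

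Of the other SLRP genes, 6 were tested and 1 rose, Tsku, which encodes a secreted inhibitor of several signaling pathways. Tsku had 123, 102, 91.8 and 143 normalized counts in the KO libraries and 92.0, 44.1, 31.9 and 46.8 in WT, so that KO replicate 3 lay just below WT replicate 1. It rose by 1.17 (SE 0.304, adjusted p = 0.0391, limma, n = 4), and the call was kept in 1 of the 8 fits that left out 1 library (adjusted p of 0.0090 to 0.0940, limma). Relative to Dcn it was also called (1.12, SE 0.294, adjusted p = 0.0433, limma). The median of the 6 was -0.23. Kera, the neighbor of Lum, had 40.0 to 81.1 normalized counts in KO and 61.3 to 96.9 in WT and did not pass (-0.30, SE 0.255, adjusted p = 0.501, limma). Of 22 other matrix and cell surface proteoglycans, 1 rose, the hyaluronan-binding Vcan (0.88, adjusted p = 0.0270), whose call was kept in 3 of the 8 fits that left out 1 library (adjusted p of 0.0090 to 0.0785, limma).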

How the data were processed

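RNA was measured in the soleus of 4 KO and 4 WT mice. The authors trimmed reads with Trimmomatic, quantified transcripts with Salmon 0.11.3 and processed genes in DESeq2 under R 4.1.2, on build GRCm39. The signal deposited by the authors is a gene count normalized by DESeq2, 1 column per library, with its mean over libraries. The log2 values, the score and the p-values deposited by the authors are fold changes, Wald statistics and test results of KO over WT and were not used.

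Since these are not counts, limma 3.58.1 (R 4.3.3) was fitted to log2(normalized count + 1) with a variance trend, no term but genotype, and Benjamini-Hochberg adjustment over 16382 genes, and again after subtraction of Dcn in each library. A filter at a summed value above 5 left out 0 genes. A line without a gene name (0.0112 to 0.0150% of each library) was left out. From 13.9 to 41.4% of low values were whole reads within 0.01, too few for a count test. Lengths came from GENCODE M21 and gene order from RefSeq. Python 3.11.15, numpy 2.4.6, pandas 2.3.3 and matplotlib 3.10.9 were used, and the statistics were tested on simulated data.

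The members and the 18 lists were chosen with earlier results of these data known. The rule for named genes took all members, up to 4 called genes of smallest adjusted p per list, the 3 genes most correlated with each member, and Megf10. Of these, 1 gene that this rule takes is not reported here. Alternatives were other pseudocounts, filters, scalings and variance priors, libraries left out, a replicate block and depth as a covariate.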

Additional observations from a re-analysis of the deposited data

Results flagged for a closer look

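Lum in KO replicate 4, at 992 normalized counts, stood apart from the other 3 KO libraries, which lay between 882 and 892 (gap of 0.910 of the range). It was the single value that stood apart among 20 groups of 4 libraries examined, each member in each genotype, and chance alone marks about 1 group in 20. Lum was not called with this library (adjusted p = 0.0698, limma) or without it (log2 fold change 0.40, adjusted p = 0.146, limma).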

How the results depend on the processing

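Bgn was called in 19 of 20 alternatives (log2 fold change 0.69 to 0.83, adjusted p 0.00124 to 0.139, limma), the exception being depth as a covariate. Aspn was called in 15 of 20 (0.49 to 0.93, adjusted p 0.00871 to 0.0805, limma). The fit without a filter is counted among the 20 but was the same as the reported fit, because the filter left out no gene. The members called higher, 2 in the reported fit, were 1 with a prior variance without trend, 1 with KO replicates 2 and 3 left out together, 0 with depth as a covariate, and 1 to 3 when 1 library was left out. No member was called lower in any alternative. The members called relative to Dcn, 1 as reported, were 0, 0 and 0 under the same 3 alternatives and 1 to 2 when 1 library was left out. All genes called, 1466 as reported, were 819, 164 and 58 under these alternatives and 662 to 1231 when 1 library was left out. Rescaling to equal totals called 1279 genes higher and 321 lower (79.9% higher, against 57.6% as reported), and 1244 and 333 (78.9% higher) without the 10 most abundant genes. Estimates near 0 changed sign: Dcn to -0.026 with depth and -0.032 to 0.13 when 1 library was left out, Omd to 0.010 without KO replicates 2 and 3 and -0.39 to 0.15, Ecm2 relative to Dcn to 0.14 with depth and -0.051 to 0.048, and Omd relative to Dcn -0.43 to 0.069. The cause was not tested. Replicate numbers did not pair the libraries (r of -0.03 to -0.07 between same-numbered ones), and the replicate block called 1278 genes and the same count of 2 members. Depth was lower in 3 of 4 KO libraries, so that depth and genotype cannot be fully told apart, and adding it raised the median SE 1.67 times.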
